A study of Homo sapiens with 24 samples.

Results

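HEK293T cells, an established human embryonic kidney line, were given OSMI-2 at 10 µM or its solvent DMSO for 6 h, and the polyadenylated RNA of these cells was sequenced from strand-marked libraries. OSMI-2 inhibits OGT, the enzyme that places O-linked N-acetylglucosamine (O-GlcNAc) on proteins. The comparison took in 5 of the 23 libraries whose counts were read: DMSO libraries a, b and c, and OSMI-2 libraries a and b. By the labels the study has 24 samples in 8 groups of 3; the third OSMI-2 6 h sample was not analysed here. The same experiment has 3 DMSO and 3 OSMI-2 libraries taken at 2 h, which are used below to place the 6 h levels, and a second experiment used TMG at 5 µM, an inhibitor of the enzyme that removes O-GlcNAc. All libraries come from the same line, grown on plates with a change of medium ahead of treatment. Nothing in the labels says that libraries of a group came from separate cultures, so the p-values measure only the spread between these samples, which may be technical.

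O-GlcNAc is a single sugar placed on serine and threonine residues of nuclear and cytoplasmic proteins. OGT is its only writer in these compartments and OGA, whose gene is listed here as MGEA5, is its eraser. The sugar donor is made from glucose by the hexosamine pathway, so the modification is often described as a readout of nutrient state. Detained introns are introns that remain in polyadenylated transcripts held in the nucleus. Such transcripts can be spliced further and exported, or degraded, and both OGT and MGEA5 are among the genes known to carry them. Splicing of the OGT intron is known to respond to O-GlcNAc itself, which gives the cell a way to adjust its supply of the enzyme.

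The counts cover 164219 bins in 13236 gene groups, of which 4769 bins in 3150 genes are classed by the authors as detained introns. A gene's level is the sum of its other bins. Library totals ran from 41737278 to 54136565 counts with DMSO and were 56236427 and 86285064 with OSMI-2. No pair of libraries in a group agreed within sampling noise (chi-square per degree of freedom 52.0 to 287). Of 12 listed marker genes of HEK293T, 11 were tested. All 11 were present in the 5 libraries, from EYA1 with 28 to 148 reads to VIM (vimentin) with 23658 to 56644. The neurofilament gene NEFM was the 1 called higher, against 2.57% of all genes tested. Their median log2 difference was 0.71, beside 0.15 for all genes. In 10 of them both OSMI-2 libraries were above all DMSO libraries, against 32.2% of all genes. Without DMSO library a 8 of the 11 were higher, against 34.2% of all genes. Of 14 markers of other cell types 4 had enough reads to test, and none passed: COL1A1 (501 to 1763 reads), ACTA2 (381 to 868), COL3A1 (17 to 31) and GFAP (5 to 11). Without DMSO library a 1 of these 4 was higher.

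DMSO library a stood apart from the other 4. The slope of its gene levels on GC content was 0.188 log2 units per 10 percentage points of GC, against 0.762 to 0.887 in the others, so results that turn on it are given with and without it.

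The DMSO 6 h libraries also stood apart from every 2 h library of the experiment, which bears on each result that follows. Detained introns took 1.21%, 0.983% and 0.756% of the counts in DMSO libraries a, b and c at 6 h, and 0.286% and 0.328% in OSMI-2 libraries a and b. The groups did not overlap, and the OSMI-2 values lay near the 2 h ones: 0.239%, 0.276% and 0.272% with DMSO and 0.244%, 0.232% and 0.278% with OSMI-2. In the TMG experiment the 12 libraries ran from 0.377% to 0.669%, below all 3 DMSO 6 h libraries described here. The mean fell from 0.984% ± 0.229 (SD, n = 3) to 0.307% ± 0.0302 (SD, n = 2), with an exact two-sided permutation p of 0.1, which is the smallest that 2 against 3 libraries can give.

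**Figure D1:**
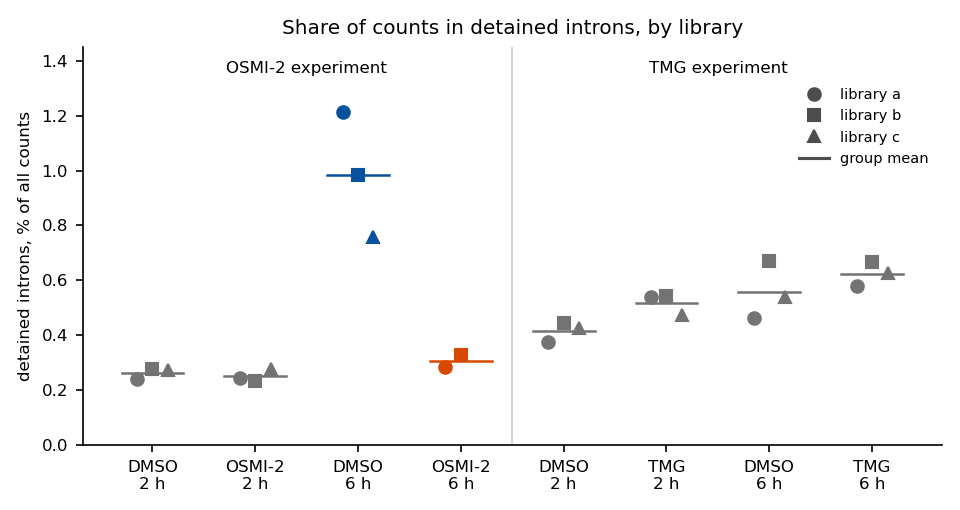
Share of all counts that lay in detained introns (percent, vertical axis) in each of the 23 libraries, by group, with the marker shape giving the library's letter and a bar at each group mean. The 3 DMSO 6 h libraries of the OSMI-2 experiment lie between 0.756% and 1.21%, above all other libraries, and the OSMI-2 6 h libraries at 0.286% and 0.328%.

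For a feature whose OSMI-2 6 h level equals the 2 h levels, the effect of the drug and whatever set the DMSO 6 h libraries apart cannot be told apart. Each group of features is therefore described against DMSO at 6 h and then placed against the 6 libraries taken at 2 h. Levels are CPM, counts per library size as edgeR gives them, scaled over the 11 libraries of the experiment, and fold changes and tests come from the 5 libraries at 6 h.

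The O-GlcNAc enzymes came first because the drug acts on one of them. OGT (X:70752913-70795750 in hg19, plus strand), summed over bins other than its detained introns, had 247, 112 and 147 CPM in DMSO libraries a, b and c and 56.8 and 35.01 CPM in OSMI-2 libraries a and b. MGEA5 (10:103544198-103578222, minus strand) had 160.5, 96.1 and 123 CPM with DMSO and 36.8 and 28.5 CPM with OSMI-2. For both genes the groups were separate at 6 h. OGT fell by 1.85 on the log2 scale (SE 0.33, adjusted p = 0.000346, edgeR's quasi-likelihood test with Benjamini-Hochberg adjustment, as in the other gene tests) and MGEA5 fell by 1.93 (SE 0.33, adjusted p = 0.000136).

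The 2 genes differed in where they stood against 2 h. OGT at 6 h with OSMI-2 overlapped the 2 h range of 36.4 to 92.1 CPM, and its DMSO 6 h libraries were above that range. MGEA5 with OSMI-2 lay below all 6 of the 2 h libraries (46.4 to 104 CPM), while its DMSO 6 h libraries overlapped them. The other 6 genes of the O-GlcNAc and hexosamine list (GFPT1, GFPT2, GNPNAT1, PGM3, UAP1 and NAGK), which make or recycle the sugar donor, did not pass. GFPT1, the rate-limiting enzyme, had a log2 difference of 0.73 (adjusted p = 0.172) and its relative GFPT2 one of -0.60 (adjusted p = 0.263).

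The 2 detained introns of OGT flank one small exon bin, and all 3 fell together. OGT_E005 (X:70764486-70766193) held 6.68%, 6.19% and 4.98% of the gene's counts with DMSO and 0.447% and 1.16% with OSMI-2. OGT_E007 (X:70766347-70767756) held 7.33%, 7.68% and 5.85% against 0.831% and 0.943%. The exon bin between them, OGT_E006 (X:70766194-70766346, 153 bases), held 1.29%, 1.62% and 1.19% against 0.128% and 0.0943%.

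In raw counts this exon had 203, 115 and 107 reads in the DMSO libraries and 4 and 3 in the deeper OSMI-2 libraries. Its usage fell by 3.43 on the log2 scale (SE 0.94, adjusted p = 0.0214, edgeR diffSpliceDGE), which is in addition to the fall of the whole gene. Here the 2 h libraries do separate by drug: OGT_E005 held 2.73% to 4.03% of the gene with DMSO at 2 h and 0.304% to 0.658% with OSMI-2 at 2 h. Both OSMI-2 6 h libraries thus lay under every DMSO library of either time for OGT_E005, and the same held for OGT_E007 (3.44% to 5.08% with DMSO at 2 h) and for OGT_E006 (0.682% to 0.759%).

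MGEA5 has 2 detained introns that behaved differently. MGEA5_E008 (10:103553756-103555130) held 2.93%, 2.76% and 1.97% of the gene with DMSO and 0.592% and 0.655% with OSMI-2, and fell by 1.92 relative to the gene on the log2 scale (SE 0.33, adjusted p = 3.87e-06, limma). It too was under every DMSO library at 2 h, where it held 0.875% to 1.01%. MGEA5_E003 (10:103547281-103550652) held 2.39%, 3.34% and 1.82% with DMSO and 2.27% and 1.27% with OSMI-2. These groups overlapped, and relative to the gene the difference of -0.50 (SE 0.34, adjusted p = 0.168, limma) did not pass. With OSMI-2 at 6 h this intron stood above all 2 h libraries, which held 0.361% to 1.16%.

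Detained introns as a class fell, both relative to their gene and by their own levels. Of 4616 introns tested relative to their gene (log2 ratio of intron to gene counts, limma), 4108 (89%) were lower and 10 (0.217%) higher (89.2% either way), with a median of -1.63; these shares are the background for every count of introns below. By their own levels 4035 of 4677 (86.3%) were lower and 28 (0.599%) higher, 86.9% in all (edgeR). The middle of the distribution was narrow, from -2.06 at the lower quartile to -1.16 at the upper, and 1288 introns fell by at least 2 log2 units. The host gene was not called for 4016 of the 4108, was higher for 59 and lower for 33. Few genes were called in any case, 4.94% of all 12484 tested for level. Of 320 genes with at least 3 tested introns, 241 had every intron lower and 7 had none lower. Without DMSO library a 3900 introns were lower. Levels scaled on the detained introns alone, which by construction takes out a shift of the class, left 273 lower and 497 higher.

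**Figure D2:**
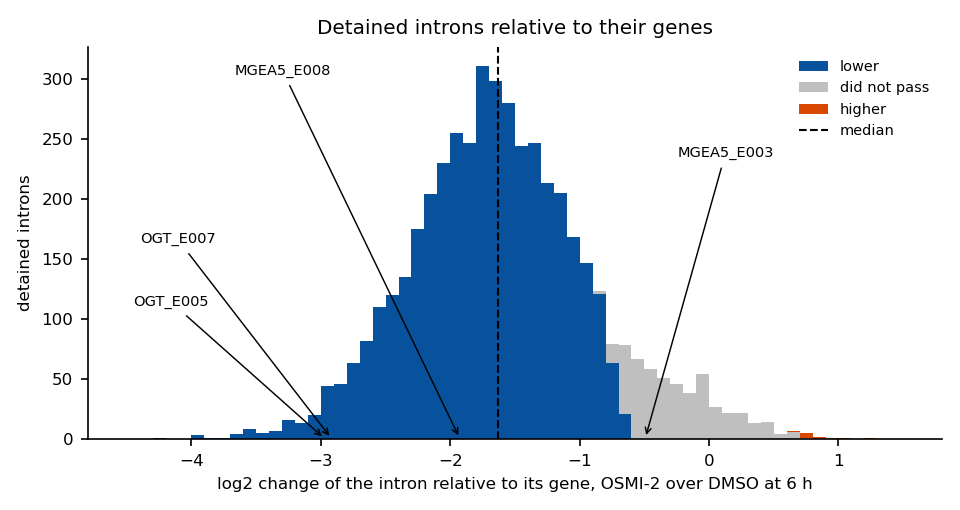
Histogram of the log2 change of 4616 detained introns relative to their gene, OSMI-2 against DMSO at 6 h (horizontal axis) against the number of introns (vertical axis), coloured by call, with the median and the introns of OGT and MGEA5 marked. Nearly the whole distribution lies below 0, with its median at -1.63, the OGT introns at -2.97 and -2.92 and MGEA5_E003 nearest to 0.

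Against 2 h, most of this difference lay in the DMSO libraries. For 3855 of the 4108 lower introns (93.8%, against 86.6% of all introns tested) all 3 DMSO 6 h libraries were above every 2 h library. None had all DMSO 6 h libraries below every 2 h library, against 1.02% of all tested. Both OSMI-2 libraries were above every 2 h library for 505 (12.3%, against 12.4% of all tested) and below every one for 239 (5.82%, against 6.5%). The median intron of the 4108 held 0.568% of its gene with DMSO at 2 h, 0.562% with OSMI-2 at 2 h, 2.13% with DMSO at 6 h and 0.637% with OSMI-2 at 6 h.

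The largest falls, where an intron averaged 50 reads or more, were in genes of several functions. EFTUD2_E021 (17:42949939-42953301), in the gene of a GTPase of the U5 spliceosomal particle, held 0.450%, 0.318% and 0.260% of the gene with DMSO and 0.00964% and 0.0359% with OSMI-2, and fell by 3.98 relative to the gene (SE 0.43, adjusted p = 2.33e-09, limma). WDR44_E013, a 21821-base intron on chromosome X, held 9.74%, 18.4% and 11.3% against 1.22% and 0.453%, and fell by 3.97 (SE 0.35, adjusted p = 1.31e-10). In both the groups were separate by a wide margin, and the OSMI-2 values overlapped the range of the 2 h libraries: 0.0338% to 0.0754% for EFTUD2_E021 and 0.920% to 1.52% for WDR44_E013.

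CUL1_E020, in the gene of a scaffold of ubiquitin ligases, went from 5.31%, 8.94% and 7.89% to 0.803% and 0.688% of its gene. MAP4_E006, in the gene of a microtubule-binding protein, went from 0.721%, 0.678% and 0.640% to 0.0680% and 0.0462%. DIAPH1_E010, in the gene of an actin-nucleating formin, went from 1.37%, 0.721% and 0.475% to 0.0666% and 0.0740%. These 3 fell by 3.24, 3.52 and 3.38 relative to their genes (SE 0.32, 0.37 and 0.40). HECTD3_E008, in the gene of another ubiquitin ligase, was the exception among the 8 largest in its position against 2 h: 3.505%, 2.17% and 2.44% with DMSO, 0.217% and 0.330% with OSMI-2, and 0.404% to 0.859% at 2 h, so that both OSMI-2 libraries were below all of the 2 h ones.

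Introns of the gene lists followed the class. All 22 tested introns of spliceosome core genes were lower (median -2.28), as were all 12 of nonsense-mediated decay factors (median -2.17), all 10 of proteasome subunits (median -1.86) and all 8 of HNRNP proteins (median -1.78). For nuclear pore genes 40 of 42 were lower (median -1.95), and for aminoacyl-tRNA synthetases, which charge tRNAs, 25 of 31 (median -1.73). Cytosolic ribosomal protein genes had fewer lower introns, 4 of 7 (median -0.80), and the 2 introns tested in snoRNA host transcripts did not pass. These medians stand beside -1.63 for all introns, and nothing here tests whether a list differs from the rest.

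The 10 introns that were higher relative to their gene included ones whose own level did not rise. RPL9_E004, in a ribosomal protein gene described below, was one: the intron fell by 0.66 on the log2 scale and its gene by 1.74. Its share of the gene overlapped between the groups, at 1.31%, 1.89% and 0.537% with DMSO and 1.42% and 2.92% with OSMI-2. Without DMSO library a this intron did not pass relative to its gene (adjusted p = 0.0677, limma). TCEA2_E002, in the gene of a transcription elongation factor, is an intron whose own level rose, by 0.79 (SE 0.26, adjusted p = 0.00379, edgeR). It held 11.4%, 12.4% and 12.2% with DMSO and 16.8% and 17.4% with OSMI-2, above all 2 h libraries (14.7% to 16.4%), but relative to the gene it did not pass (0.51, adjusted p = 0.0955, limma).

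Of 12484 genes tested for level, 321 (2.57%) were higher with OSMI-2 and 296 (2.37%) lower, 4.94% in all, which is the background for the lists below. The change was at least 1 log2 unit for 258 of the higher and 292 of the lower genes. The median gene had a log2 difference of 0.15, so members of a list are read against that shift. The split depended on the scaling: with factors taken from genes alone 33 were higher and 481 lower (median -0.09), and with median-of-ratios factors 709 and 234 (median 0.30). No called gene named below changed sign under either. No gene passed without OSMI-2 library a (1050 at an unadjusted p under 0.05) or without OSMI-2 library b (682), fits in which the one remaining library is taken to vary like the DMSO ones. Without DMSO library a 4247 genes (34.2%) were higher and 1021 (8.21%) lower, and these held 319 of the 321 and 278 of the 296. Those 2 shares, and not 4.94%, are the background for every list count below that leaves out DMSO library a. Without DMSO library b 322 passed, and without DMSO library c 129.

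The higher genes were rich in GC (median 59.5%, against 48.6% for all genes tested and 46.7% for the lower genes). Without DMSO library a the median of the higher genes was 46.4% and that of the lower genes 49.0%. With the GC trend of each library removed, an alternative chosen after seeing the data, 304 of 313 higher and 262 of 270 lower genes with a GC value were called again. That fit called more genes, 1703 higher (14.2%) and 1408 lower (11.8%) of 11966 tested, so being called again is not a stricter check.

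For 271 of the 321 higher genes (84.4%, against 24% of all genes) the DMSO 6 h libraries were below every 2 h library, and for 62 (19.3%, against 14.5%) the OSMI-2 6 h libraries were above every one. For 169 of the 296 lower genes (57.1%, against 9.01%) the DMSO 6 h libraries were above every 2 h library, and for 118 (39.9%, against 21.8%) the OSMI-2 libraries were below.

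Among the 12 largest rises, taken over genes that averaged at least 50 reads, the first was HMOX1, which encodes heme oxygenase 1, a stress-induced enzyme that degrades heme. It had 7.91, 13.4 and 15.0 CPM with DMSO and 40.1 and 39.2 CPM with OSMI-2, and rose by 1.75 on the log2 scale (SE 0.32, adjusted p = 0.000346). Its 2 h libraries ran from 45.5 to 58.3 CPM, higher than both 6 h groups. UCP2, a mitochondrial carrier, had 25.2, 49.1 and 42.1 CPM against 105 and 117 CPM, within its 2 h range of 99.5 to 129. SH3BGRL, PAPSS2 (which makes the sulfate donor of the cell), PPDPF, ALKBH4, SCAND1, LRRC73 and NEFM likewise overlapped their 2 h ranges with OSMI-2, and QPCT lay below its 2 h range in both 6 h groups.

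Only 2 of these 12 had OSMI-2 libraries above all those at 2 h. ELF1, an ETS-family transcription factor that is itself known to carry O-GlcNAc, had 1.54, 0.837 and 0.864 CPM with DMSO, 3.17 and 3.28 CPM with OSMI-2, and 1.56 to 2.55 CPM at 2 h. It rose by 1.61 (SE 0.38, adjusted p = 0.00574). CHAC1, a glutathione-degrading enzyme and a well-known target of the stress factor ATF4, had 1.84, 3.43 and 3.21 CPM with DMSO and 8.04 and 8.21 CPM with OSMI-2, against 3.68 to 5.68 CPM at 2 h. It rose by 1.56 (SE 0.36, adjusted p = 0.00542).

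**Figure D3:**
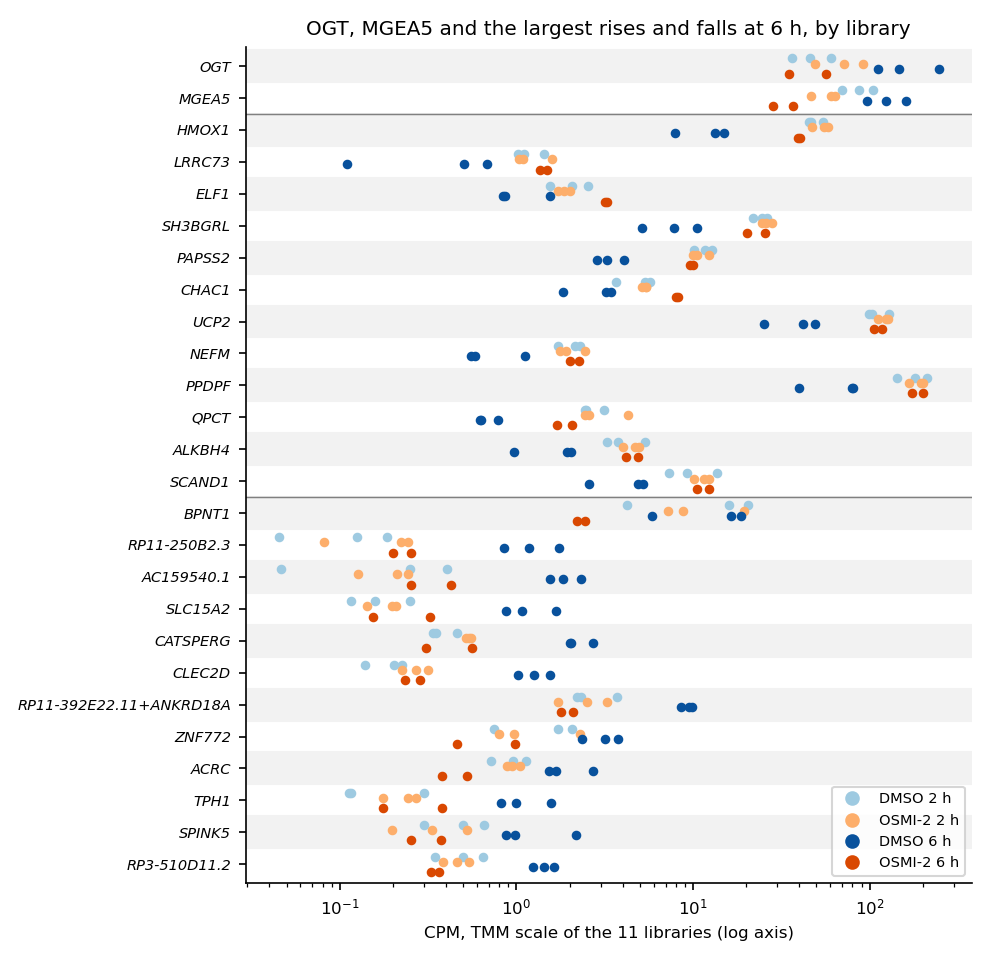
Level of OGT, MGEA5 and the 12 genes with the largest rise and the 12 with the largest fall at 6 h (CPM, log axis) in each library of DMSO 2 h, OSMI-2 2 h, DMSO 6 h and OSMI-2 6 h. In all 12 rises the DMSO 6 h points lie below every 2 h point, and in 11 of the 12 falls they lie above.

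The CHAC1 promoter is shown because ATF4 target genes are recognised by an amino acid response element, searched here as TGATGNAA on both strands, and CHAC1 was the ATF4 target with the largest rise. The sequence is RefSeq's for GRCh38.p14, chr15:40953221-40953520, plus strand, from 250 bases before to 50 after the start site, with the match in capitals; the match reads on the opposite strand and begins 209 bases before the start site.
CHAC1 promoter: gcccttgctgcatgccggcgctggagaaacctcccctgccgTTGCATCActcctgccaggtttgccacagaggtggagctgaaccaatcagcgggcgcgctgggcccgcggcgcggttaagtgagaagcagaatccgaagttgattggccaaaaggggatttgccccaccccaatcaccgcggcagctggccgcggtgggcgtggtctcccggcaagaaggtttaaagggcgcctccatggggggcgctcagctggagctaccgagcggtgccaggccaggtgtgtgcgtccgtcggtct

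These letters occur in 3.62% of 35116 RefSeq promoters of this length. They occur in 6 of the 21 promoters matched for the ATF4 list (ASNS, ATF3, CEBPG, CHAC1, SLC3A2 and SLC7A1). A match is a description of the letters and does not show binding.

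The ATF4 list as a whole moved little in calls. Of its 28 tested genes 2 were higher (CHAC1 and DDIT4) and none lower, with a median of 0.53 beside 0.15 for all genes, and 17 had both OSMI-2 libraries above all DMSO libraries, against 32.2% of all genes. Without DMSO library a, 14 of the 28 were higher and none lower. DDIT4, an inhibitor of mTORC1 signalling, had 33.1, 59.6 and 60.6 CPM with DMSO and 100.3 and 91.2 CPM with OSMI-2, a log2 rise of 0.95 (SE 0.30, adjusted p = 0.0412). Its 2 h libraries ran from 41.5 to 64.6 CPM, so its OSMI-2 libraries were above them all, and its DMSO 6 h libraries mostly within them. CHAC1 and DDIT4 thus share a level with OSMI-2 at 6 h that no other library of the experiment reached.

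Of 22 NRF2 targets, the antioxidant genes, 2 were higher, HMOX1 among them, and none lower (median 0.42). Without DMSO library a, 11 of the 22 were higher.

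Among 19 genes of the unfolded protein response 1 was higher and none lower (median -0.07, with 6 higher without DMSO library a). That gene, SEL1L, an adaptor of the ubiquitin ligase that clears misfolded proteins from the endoplasmic reticulum, had 6.00, 2.01 and 2.92 CPM with DMSO and 8.33 and 8.67 CPM with OSMI-2. It rose by 1.25 (SE 0.37, adjusted p = 0.0303) and stood above its 2 h range of 3.22 to 5.35 CPM, with DMSO library a high among the controls.

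Of 17 heat shock chaperones 2 were higher and none lower (median 0.38; 10 higher without DMSO library a). HSPB1, a small chaperone, had 15.5, 29.8 and 32.3 CPM with DMSO and 51.6 and 52.7 CPM with OSMI-2. HSPA1B, an inducible HSP70, had 161, 245 and 244 CPM against 464 and 397 CPM, and a log2 rise of 1.03 (SE 0.32, adjusted p = 0.0417). HSPA1B was higher still at 2 h, at 706 to 1106 CPM, so that both 6 h groups lay below all 2 h libraries.

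Sterol synthesis had 2 of 22 genes higher and none lower (median 0.12; 12 higher and 1 lower without DMSO library a). MVK and MVD, both enzymes of the mevalonate pathway, had log2 rises of 1.06 and 1.09 (adjusted p = 0.0222 for each, edgeR). MVD had 64.4, 105 and 110.1 CPM with DMSO and 184 and 202 CPM with OSMI-2, within its 2 h range of 127 to 209.6 CPM. None of 19 immediate early genes, 16 p53 targets, 29 mitosis genes, 21 autophagy and lysosome genes, 20 aminoacyl-tRNA synthetases, 15 decay factors or 11 snoRNA host transcripts passed, with medians from 0.01 to 0.41. With DMSO library a left out, 5 immediate early genes were higher and 2 lower, 5 and 2 of the p53 targets, 19 and 1 of the mitosis genes, 6 and 1 of the autophagy genes, 9 and 0 of the synthetases, 8 and 1 of the decay factors and 1 and 1 of the host transcripts. Over all genes that fit called 34.2% higher and 8.21% lower.

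Among the 12 largest falls, under the same minimum of 50 reads, BPNT1, a phosphatase of sulfate and inositol metabolism, had 18.6, 5.84 and 16.5 CPM with DMSO and 2.21 and 2.45 CPM with OSMI-2, and fell by 2.51 (SE 0.41, adjusted p = 6.73e-05). Its level varied at 2 h as well, from 4.22 to 20.4 CPM, and both OSMI-2 libraries were below that range. ACRC, a germ cell nuclear protein gene, had 2.71, 1.53 and 1.68 CPM against 0.381 and 0.528 CPM, also below its 2 h range of 0.717 to 1.13 CPM. The other 10 overlapped their 2 h ranges with OSMI-2.

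Several of those 10 are genes of specialised tissues read at low levels in these cells. SLC15A2, a peptide transporter, had 1.69, 0.869 and 1.08 CPM with DMSO and 0.327 and 0.154 CPM with OSMI-2, against 0.116 to 0.250 CPM at 2 h. CATSPERG, a subunit of the sperm calcium channel, had 2.03, 2.73 and 2.00 CPM against 0.308 and 0.561 CPM. TPH1, the peripheral enzyme of serotonin synthesis, had 1.57, 0.995 and 0.815 CPM against 0.381 and 0.176 CPM. In each of these 3 all DMSO 6 h libraries were above the 2 h range and the OSMI-2 libraries overlapped it.

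The merged group that holds ANKRD18A and an overlapping gene, whose reads cannot be assigned to either, had 9.48, 9.93 and 8.59 CPM with DMSO and 1.80 and 2.10 CPM with OSMI-2. ZNF772 was the zinc finger gene among the 12, with 3.78, 2.37 and 3.18 CPM against 0.980 and 0.462 CPM. It was 1 of 17 ZNF genes that were lower among 346 tested, where 8 were higher (median -0.16; 65 higher and 43 lower without DMSO library a). ZNF763 and ZNF320 fell by 1.78 and 1.72, and ZNF703 and ZNF837 rose by 1.26 and 1.79 on the log2 scale (adjusted p = 0.00382, 0.00542, 0.00801 and 0.00804, edgeR). ZNF703, a transcriptional repressor, had 52.3, 114 and 100.3 CPM with DMSO and 203 and 211 CPM with OSMI-2, above all 2 h libraries (118 to 167 CPM). ZNF837, read at 0.980 and 0.891 CPM with OSMI-2, was also above its 2 h libraries (0.417 to 0.853 CPM).

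TXNIP, a glucose-responsive inhibitor of glucose uptake on the glycolysis list, was the 1 gene of the 22 tested there to pass, and it was lower (8 higher and 1 lower without DMSO library a). It had 5.28, 3.95 and 5.98 CPM with DMSO and 1.80 and 1.39 CPM with OSMI-2, just below the 2 h range of 1.83 to 3.35 CPM, and fell by 1.64 (SE 0.39, adjusted p = 0.00710). The DMSO 6 h libraries were above that range, so TXNIP moved outside it in opposite directions in the 2 groups.

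The TXNIP promoter is shown for its carbohydrate response element, by which glucose-sensing factors act on this gene, searched on both strands as a pair of CACGNG boxes with 5 bases between them. It is RefSeq's for GRCh38.p14, chr1:145996530-145996829, minus strand, with the match in capitals, beginning 88 bases before the start site.
TXNIP promoter: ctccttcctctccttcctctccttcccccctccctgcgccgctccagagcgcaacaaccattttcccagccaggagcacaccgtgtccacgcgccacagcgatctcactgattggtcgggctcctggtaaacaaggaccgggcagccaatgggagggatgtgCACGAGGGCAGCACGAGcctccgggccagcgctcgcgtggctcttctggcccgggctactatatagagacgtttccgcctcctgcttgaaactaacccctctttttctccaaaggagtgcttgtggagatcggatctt

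The letters occur in 20 of 35116 promoters (0.0570%) and in 1 of the 21 promoters matched for the glycolysis list, that of TXNIP.

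Genes of RNA processing moved in both directions. HNRNPD, an AU-rich element binding protein, had 399, 385 and 419.6 CPM with DMSO and 881 and 789 CPM with OSMI-2, a log2 rise of 1.09 (SE 0.34, adjusted p = 0.0384). With OSMI-2 it overlapped its 2 h range of 864 to 932 CPM, and all DMSO 6 h libraries were below that range. HNRNPC, which binds nascent transcripts, had 953, 815 and 1289.6 CPM against 444 and 249 CPM, a fall of 1.53 (SE 0.37, adjusted p = 0.00801). HNRNPC also varied from 522 to 1237 CPM among the 2 h libraries, and OSMI-2 lay below all of them. The other 19 of 21 HNRNP genes did not pass (median 0.44; 14 higher and 1 lower without DMSO library a).

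SRSF5 was the only called gene of 19 SR proteins and their kinases, a list with a median of -0.36. It had 293, 145 and 156 CPM with DMSO and 79.6 and 101 CPM with OSMI-2, a fall of 1.09 (SE 0.33, adjusted p = 0.0320). Both OSMI-2 libraries were below the 2 h range of 126 to 170.3 CPM, and DMSO library a was far above it; without that library the fall was 0.64 (adjusted p = 0.0121). SNRNP40, a U5 particle protein, was the 1 of 32 spliceosome core genes to pass and was lower, at 129, 143 and 206 CPM against 93.1 and 60.3 CPM. Leaving out DMSO library a, 15 spliceosome core genes were higher and 2 lower, and 4 SR or kinase genes were higher and 1 lower.

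Among OGT's chromatin partners, TET1 and KANSL2 were the 2 of 28 called; without DMSO library a, 14 were higher and 1 lower. TET1, a DNA demethylase that binds OGT, had 6.82, 3.59 and 3.54 CPM with DMSO and 10.2 and 10.4 CPM with OSMI-2, a log2 rise of 1.18 (SE 0.36, adjusted p = 0.0346). It stood above its 2 h range of 4.10 to 5.91 CPM. KANSL2, of the histone acetylating NSL complex, had 44.0, 34.9 and 51.1 CPM against 17.7 and 13.7 CPM, a fall of 1.43 (SE 0.33, adjusted p = 0.00456), and stood below its 2 h range of 19.7 to 38.1 CPM.

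The called genes of protein making and energy were few and went in both directions. Of 79 cytosolic ribosomal protein genes 3 were higher, RPL28 and RPL23A among them, and 1 lower (RPL9). Of 67 mitochondrial ribosomal protein genes 5 were higher and 2 lower. Of 35 genes listed under complex I, NDUFA4 among them, 2 were higher and 2 lower. The medians of these 3 lists were 0.34, 0.07 and 0.16. These became, without DMSO library a, 27 higher and 3 lower, 26 and 4, and 11 and 4. The 4 calls among 79 cytosolic genes are near the 4.94% of all genes. RPL23A had 478, 440 and 597 CPM with DMSO and 929 and 1123 CPM with OSMI-2, below its 2 h range of 1195 to 1570 CPM. RPL9 had 365, 185 and 693 CPM with DMSO and 147 and 97.0 CPM with OSMI-2, a fall of 1.74 (SE 0.36, adjusted p = 0.00167), but its level ran from 277 to 1771 CPM at 2 h. NDUFA4, a respiratory chain protein, had 157, 152 and 251 CPM against 71.5 and 49.0 CPM, and 120.5 to 294 CPM at 2 h.

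The falls of RPL9, NDUFA4, MRPS23 and MRPL15 all reached below the 2 h range and that of NDUFA9 overlapped it, whereas none of the 10 rises in these 3 lists reached above it. PSMA5 and PSMD13, the 2 proteasome genes called of 31, fell by 1.42 and 1.13 (without DMSO library a, 10 proteasome genes were higher and 4 lower). PSMA5 had 95.4 and 82.2 CPM with OSMI-2, below all 2 h libraries (129.8 to 382 CPM). These falls shared a split of the 2 h libraries that crossed the drug groups. RPL9 had 1771, 1747 and 320 CPM in DMSO libraries a, b and c at 2 h, and 407, 1384 and 277 CPM in OSMI-2 libraries a, b and c. NDUFA4, NDUFA9, MRPS23, MRPL15, PSMA5, HNRNPC, BPNT1 and KANSL2 were likewise higher in DMSO a and b and OSMI-2 b. What set these libraries apart was not tested, so the falls may not be separate results. CDT1, which licenses replication origins, was the 1 gene called of 31 in DNA replication: 81.7, 156 and 175 CPM with DMSO and 299 and 326 CPM with OSMI-2; without DMSO library a, 7 genes of that list were higher and 4 lower. NUP43 was the 1 nuclear pore gene called of 19 and was lower, at the edge of the threshold (log2 difference -1.16, adjusted p = 0.04996); without DMSO library a, 8 were higher and 2 lower. Its OSMI-2 libraries, at 4.43 and 4.47 CPM, were just under its lowest 2 h library of 4.60 CPM.

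**Figure D4:**
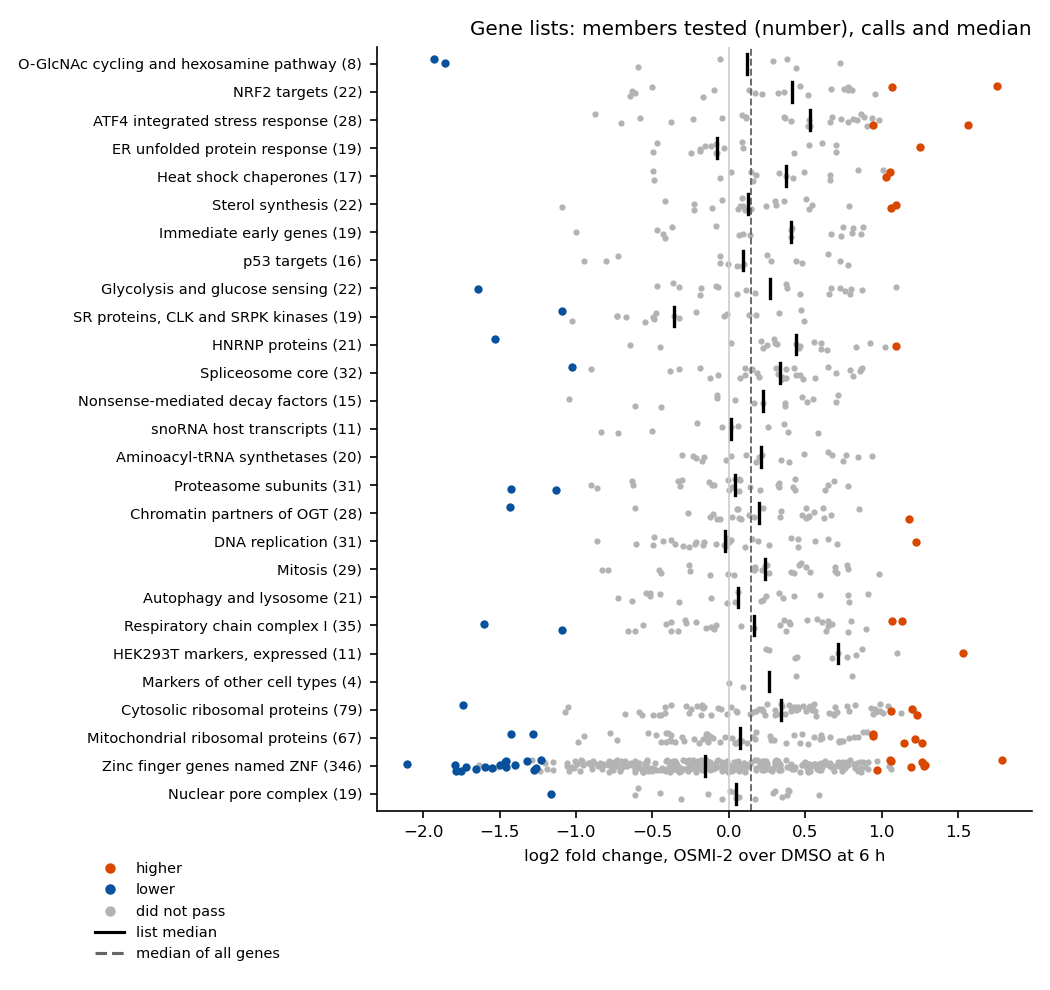
Log2 difference of each tested gene, OSMI-2 against DMSO at 6 h (horizontal axis), in 27 gene lists (rows), with called genes coloured, a mark at each list's median and a dashed line at the median of all genes, 0.15. Called genes are few in every list, and lists such as HNRNP proteins and complex I have calls on both sides.

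Exon usage was compared as each bin's share of its gene. Of 128298 exon bins tested, 860 (0.67%) were lower and 23 (0.0179%) higher with OSMI-2 (edgeR diffSpliceDGE). The authors' own test, on the same counts, called 836 of the 860 and 5829 of the 128298 bins tested here. The lower bins lay in 621 genes and were small parts of them: the median bin went from 1.12% of the gene with DMSO to 0.306% with OSMI-2. They were wide, with a median of 378.5 bases against 135 for all bins tested. Without DMSO library a, 799 of the 860 were called again among 1603 lower bins; without OSMI-2 library a 34 bins were lower and without OSMI-2 library b 61.

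These bins touched a detained intron in 99 cases (11.5%, against 6.31% of all bins) and were held between a pair of them in 29 cases (3.37%, against 0.383%). OGT_E006 was one of the 29. Of the lower bins 40% lay in a gene with a detained intron, against 47.5% of all bins tested.

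By class, alternative last exons were lower in 200 of 4463 bins (4.48%) and complex last exons in 99 of 2625 (3.77%), above the 0.67% of all bins. The variable parts at alternative 5' splice sites (32 of 1259, 2.54%) and 3' splice sites (30 of 1692, 1.77%) followed. Cassette exons were lower in 33 of 3775 (0.874%), constitutive last exons in 9 of 4576 (0.197%) and constitutive internal exons in 24 of 50971 (0.0471%). By number, most lower bins of any class were unclassified, 413 of 47091 (0.877%). HNRNPA1_E014, the named SRSF4 bins, U2AF2_E005, CLK2_E002, HNRNPD_E003, SRSF2_E004, SNHG15_E004 and TXNRD1_E002, described below, are unclassified.

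Against 2 h, the pattern was that of the detained introns. For 819 of the 860 lower bins (95.2%, against 8.21% of all bins) the DMSO 6 h libraries were above every 2 h library, and for 90 (10.5%, against 7.38%) the OSMI-2 libraries were below. All 99 lower complex last exons and 191 of 200 lower alternative last exons had DMSO 6 h libraries above every 2 h library. Over the 860, the median share was 0.329% with DMSO at 2 h, 0.310% with OSMI-2 at 2 h, 1.04% with DMSO at 6 h and 0.306% with OSMI-2 at 6 h.

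Of the alternative last exons, BPTF_E036 (17:65972075-65977551, 5477 bases), in the gene of a chromatin remodelling subunit, held 5.41%, 6.26% and 3.45% of the gene with DMSO and 0.831% and 0.792% with OSMI-2. Its usage fell by 2.65 (SE 0.33, adjusted p = 4.91e-09), and OSMI-2 was below the 2 h range of 0.906% to 1.38%. YLPM1_E024 (14:75297385-75301967) went from 1.74%, 0.882% and 0.775% to 0.104% and 0.146%. RBM4_E016 (11:66412215-66413497), in the gene of a splicing regulator, went from 2.23%, 1.30% and 1.44% to 0.284% and 0.188%, a fall of 2.74 (SE 0.34, adjusted p = 2.97e-08).

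Some single bins of other classes carried larger shares, though the classes did not all do so. The median share with DMSO at 6 h was 1.39% for the lower alternative last exons and 0.921% for the lower complex last exons. POLG2_E008 (17:62483015-62486794), a cassette exon in the gene of the accessory subunit of the mitochondrial DNA polymerase, held 19.6%, 22.1% and 15.8% with DMSO and 5.67% and 5.37% with OSMI-2, below the 2 h range of 6.69% to 10.5%. Its usage fell by 1.81 (SE 0.41, adjusted p = 0.00497). MYPOP_E002 (19:46394582-46398890), a complex last exon in the gene of a Myb-related repressor, held 14.2%, 13.7% and 8.16% against 1.71% and 2.03%, inside its 2 h range of 1.61% to 3.14%.

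Bins of splicing genes were lower in 8 of 207 for SR proteins and their kinases (3.86%), 5 of 263 for HNRNP proteins (1.90%) and 9 of 469 for the spliceosome core (1.92%), beside 0.67% of all bins. The same share was 9 of 209 for complex I (4.31%) and 3 of 80 for snoRNA hosts (3.75%), while none of 260 bins of decay factors or 416 of aminoacyl-tRNA synthetases was lower, and nothing here tests whether a list differs from the rest. HNRNPA1_E014 (12:54679738-54680516), in the gene of an abundant splicing repressor, held 2.32%, 1.54% and 1.49% with DMSO and 0.409% and 0.450% with OSMI-2, and fell by 2.09 in usage (SE 0.27, adjusted p = 3.64e-07). Its neighbours HNRNPA1_E011 and HNRNPA1_E015 fell by 2.38 and 1.49. In SRSF4 5 bins (E006, E008, E009, E010 and E011) fell by 1.48 to 2.72, with adjusted p from 0.000217 to 0.0287; each held under 2% of the gene. U2AF2_E005 fell by 2.36, CLK2_E002 by 1.56 and SNRNP70_E009 by 1.61, with adjusted p = 9.81e-06, 0.00162 and 0.000124 (edgeR).

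HNRNPD, whose level with OSMI-2 was above that with DMSO at 6 h, had its bin HNRNPD_E003 (4:83276048-83276154, 107 bases) fall from 1.06%, 0.804% and 0.711% of the gene to 0.181% and 0.156%. SRSF2_E004, in the gene of a serine-rich splicing activator, differed in its 2 h position: 3.90%, 2.60% and 2.51% with DMSO, 1.30% and 1.62% with OSMI-2, and 0.782% to 0.944% at 2 h, so both 6 h groups were above all 2 h libraries. Its call was lost without DMSO library a (adjusted p = 0.0585). The snoRNA host SNHG15 had SNHG15_E004 go from 4.27%, 3.79% and 3.16% to 0.841% and 0.619%.

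The 23 higher bins are few, and in 10 of them (43.5%, against 12.8% of all bins) OSMI-2 was above every 2 h library; in 11 (47.8%, against 4.72%) DMSO at 6 h was below every one. POLR1D_E008 (13:28240994-28241551), in the gene of a subunit shared by RNA polymerases I and III, held 8.46%, 6.37% and 5.26% with DMSO and 14.05% and 13.01% with OSMI-2, against 7.86% to 11.1% at 2 h. Its usage rose by 1.03 (SE 0.21, adjusted p = 0.0138). TAF5L_E002 (1:229734939-229737941) went from 5.36%, 3.51% and 3.18% to 7.49% and 9.21%. SYCP2L_E010 (6:10829240-10829439) went from 0.790%, 1.09% and 0.850% to 3.23% and 3.39%, above 1.16% to 2.45% at 2 h.

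GCDH_E001 and GTF3C1_E029 rose but also varied among libraries of 1 group. GCDH_E001 (19:13001944-13002006, 63 bases) had 9, 3 and 6 reads with DMSO and 150 and 243 with OSMI-2, and rose by 4.27 in usage (SE 0.36, adjusted p = 1.27e-11). Its share was 2.86% and 2.73% with OSMI-2 at 6 h, but at 2 h it ran from 0.0458% to 2.40%, with 1 DMSO and 1 OSMI-2 library high. GTF3C1_E029 had 75 reads in DMSO library a and 1 in each of the other DMSO libraries, against 228 and 183 with OSMI-2; without DMSO library a its rise went from 2.65 to 7.37.

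**Figure D5:**
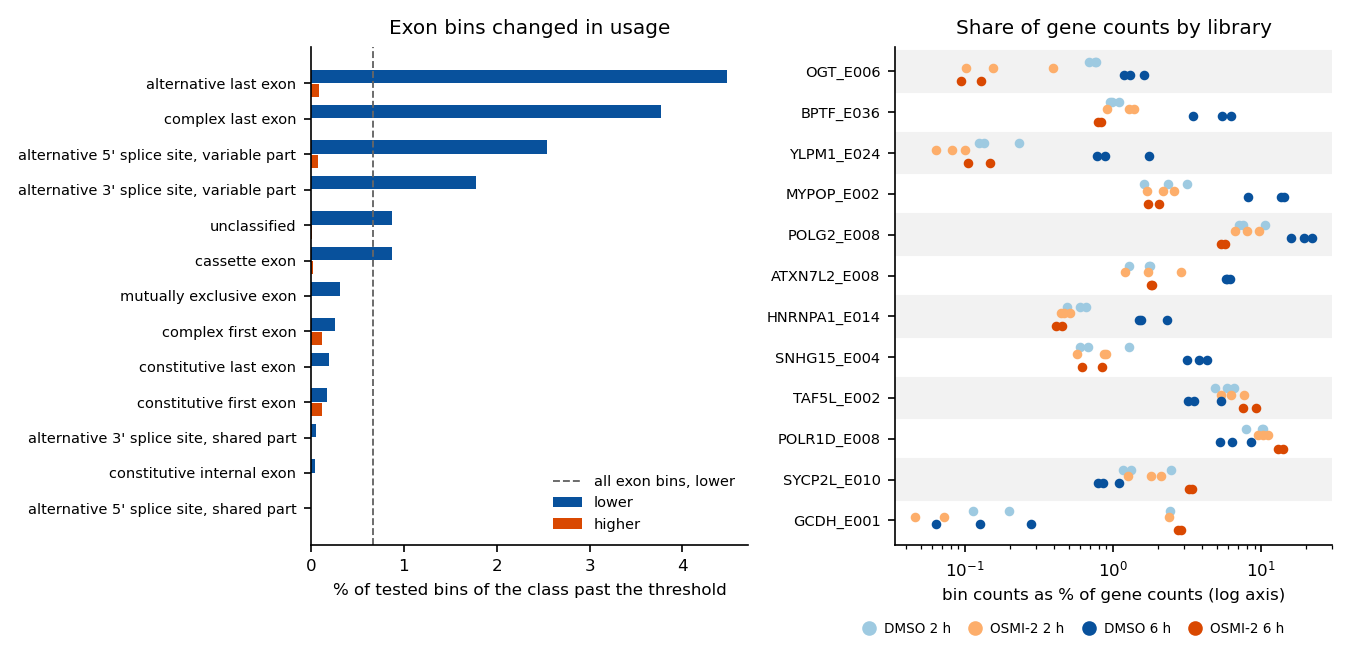
Left, the percentage of tested exon bins in each class that were lower or higher in usage with OSMI-2, with a dashed line at the 0.67% of all bins that were lower. Right, the share of the gene's counts (percent) in each library for 12 bins, where DMSO 6 h points of the lower bins, such as BPTF_E036 and POLG2_E008, stand above all others.

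The effect of OSMI-2 differed between 6 h and 2 h (edgeR, drug by time interaction) in 14 of the 12627 genes tested for it (0.111%). Without adjustment, 1847 had a p under 0.05. No gene passed without OSMI-2 library a (1248 unadjusted) or b (1040), 1608 passed without DMSO library a and 44 without DMSO library b. By their own levels, not relative to the gene, it differed in 3095 of 4693 detained introns (65.9%). The lower effect was at 6 h in 3083 of them (65.7%) and the higher in 12 (0.256%). Of the 14 genes 12 (0.095% of those tested) had the lower effect at 6 h: CATSPERG, CCDC84, CLEC2D, EDA2R, MCOLN3, OGT, the merged group with ANKRD18A, SAPCD1, SEC31B, SGK494, SLC26A10 and WDR27. AMBN and CTXN1 (0.0158%) had the higher one. OGT had a log2 difference of 0.57 at 2 h, which did not pass, and fell by 1.85 at 6 h, a difference between times of -2.46 (SE 0.44, adjusted p = 0.0329). The median OGT level was 45.7 CPM at 2 h and 147 CPM at 6 h with DMSO, and 72.1 and 45.9 CPM with OSMI-2.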

How the data were processed

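HEK293T cells treated for 6 h were compared, 2 OSMI-2 against 3 DMSO libraries; the 6 libraries at 2 h served for level and for the drug by time interaction. Whole-number counts per exon and intron bin were deposited by the authors without normalization, in a table with the columns of a DEXSeq result per the file headers. The authors also deposited a log2 fold change with its p-value, raw and adjusted, for the usage of each bin; these served as an alternative. STAR and hg19 are named in the submitters' processing notes; the counter, the annotation and the use of strand in counting are not given in the sources used here, so overlapping genes and near-identical copies are uncertain. RNA came from Trizol or a column kit, and the labels do not say which sample received which.

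Gene counts were summed over bins other than detained introns. Genes and detained introns were tested with edgeR 4.0.16 (quasi-likelihood, filterByExpr, TMM over both together, adjusted p under 0.05), introns relative to their gene with limma 3.58.1 on log2((intron + 1)/(gene + 1)) at a mean of at least 10 counts, and bin usage with edgeR's diffSpliceDGE, in R 4.3.3. DESeq2 1.42.0 was an alternative. P-values were adjusted by Benjamini-Hochberg over all features. The scripts were tested on simulated data. Count columns carry letters and not replicate numbers. GC content was known for 12608 of 13236 genes (95.3%).

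Named by rule were the 12 genes with the largest rise and the 12 with the largest fall, called list genes, the 8 introns in each direction and 5 bins per class and direction with the largest changes, at a mean of at least 50 counts. OGT and MGEA5 were always named, and genes of the interaction test are those called. A few items that these rules name are not reported here. The lists and rules were chosen with earlier results of these data known. Promoters are RefSeq's, from 250 bases before to 50 after the start site.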

Additional observations from a re-analysis of the deposited data

Results flagged for a closer look

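The effect of OSMI-2 differed between 6 h and 2 h, by the drug by time interaction, for 14 genes and 3095 detained introns. As effect at 6 h minus effect at 2 h on the log2 scale, the named features had these values, each past the adjusted threshold in edgeR. The gene CATSPERG, for a sperm calcium channel subunit, had -2.82, and CLEC2D, for a lectin-like receptor, had -2.80. The merged group with ANKRD18A had -2.12, and OGT had -2.46.

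By their own levels, not relative to the gene, the introns OGT_E005 and OGT_E007 had -2.71 and -2.75. The introns MGEA5_E008 and MGEA5_E003 had -2.06 and -2.62. These values take in the change of the gene, which was -2.46 for OGT and -1.34 for MGEA5. The MGEA5 gene did not pass (adjusted p = 0.113, edgeR). With OSMI-2 at 6 h, CATSPERG, CLEC2D, the ANKRD18A group and OGT overlapped their 2 h libraries, while all 3 DMSO 6 h libraries were above them. OGT_E005, OGT_E007 and MGEA5_E008 were already lower with OSMI-2 than with DMSO in every library at 2 h.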

How the results depend on the processing

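The count columns carry letters, which no source used here ties to replicate numbers or to shared cultures. With the letter as a replicate block, added after seeing the data and leaving 1 residual degree of freedom, 1 gene passed (0 higher and 1 lower; 1301 at an unadjusted p under 0.05), as did 4120 introns by level, 4082 relative to their gene and 668 exon bins, and 77 of 167 named features lost their call. Deviations from the group means correlated at -0.13 between the libraries lettered a and at 0.03 between those lettered b, over 11228 genes. The deviations of 2 OSMI-2 libraries from their mean mirror each other, so these values cannot tell whether the letters pair the samples. The other fits did not use the letter. The interaction was not fitted with this block. Of 617 genes called, the count became 1184 with DESeq2 (907 higher, 277 lower), 943 with median-of-ratios factors (709 and 234), 5981 in a fit of all libraries (5022 and 959), 3111 with the GC trend removed (1703 and 1408; added after seeing the data) and 0 to 5268 when 1 library was left out. Scaling on genes alone gave 514 (33 and 481). Detained introns numbered 4063 by level, 770 when scaled on introns alone and 3367 to 4069 without 1 library. Relative to their gene 4118 passed, 1987 where a mean of at least 50 counts was required, which tests fewer introns, and 3804 to 4133 without 1 library. Exon bins numbered 883, against 535 when fitted without introns, 0 with limma on log ratios (13711 at an unadjusted p under 0.05), 6033 by the authors' own test and 39 to 1869 without 1 library. The interaction called 14 genes, 22 when scaled on genes alone and 0 to 1608 without 1 library, and 2447 to 3299 introns. The difference in intron share was -0.677 percentage points and ran from -0.791 to -0.562. The causes of these differences were not tested unless stated. None of the named features reversed its direction past the threshold. Of 167 named features, 109 lost their call without OSMI-2 library a and 110 without library b, against 3, 31 and 51 without DMSO libraries a, b and c. With 2 treated libraries, a difference that did not pass may still be present.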

Other observations

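Bins of genes outside the splicing machinery also fell in usage. In NDUFB8, a subunit of respiratory complex I, the bins E001, E002, E003 and E005 fell by 1.83, 2.07, 1.98 and 1.94 on the log2 scale (adjusted p from 0.00915 to 0.0354, edgeR). NDUFB8_E001 lost its call without DMSO library a, where it fell by 1.36 (adjusted p = 0.0736). NDUFB8_E003 held 0.607%, 0.351% and 0.234% of the gene with DMSO at 6 h and 0.0584% and 0.125% with OSMI-2. All 5 of these 6 h libraries were above the 6 at 2 h, which held 0.0219% to 0.0508%. In the cytosolic ribosomal protein genes RPS18, RPS2, RPS3, RPS9 and RPSA 1 bin each fell, by 1.41 to 1.96, and each held under 0.5% of its gene.

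TXNRD1_E002, a bin of the gene for thioredoxin reductase 1, was a larger part of its gene. It held 34.1%, 16.2% and 26.3% with DMSO and 8.29% and 9.08% with OSMI-2, inside the 2 h range of 5.39% to 11.4%, and fell by 1.56 (SE 0.33, adjusted p = 0.0202, edgeR). PKM_E016, in the gene of pyruvate kinase, rose by 2.01 (SE 0.44, adjusted p = 0.0022, edgeR). It held 0.00882%, 0.0464% and 0.01% with DMSO and 0.0733% and 0.118% with OSMI-2, and its 2 h libraries ran from 0.00763% to 0.0633%.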
